A study of Rattus norvegicus with 3 samples.

Results

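In the rat cochlear libraries at P1, P7 and P14, 66 of 34927 barcodes carried transcripts of the neutrophil granule and calprotectin genes S100a8, S100a9, Mpo, Camp and Ltf above a set limit. A barcode here stands for a captured cell, and a UMI for an RNA molecule counted once. A barcode was taken when under 25% of its UMIs lay on mitochondrial genes, when it held at least 5 UMIs of these 5 genes, and when they made up at least 50 of every 10000 UMIs. These were 19 of 13390 barcodes under the mitochondrial limit at P1, or 0.142% (95% exact interval 0.0855 to 0.222), 4 of 13532 at P7, or 0.0296% (0.00805 to 0.0757), and 43 of 6215 at P14, or 0.692% (0.501 to 0.931). Since these 5 genes chose the cells, their levels are a description and not a finding. A limit of 500 genes would drop 5 of the 66, all from P14, and 1 further barcode of P7 met the rule but lay over the mitochondrial limit.

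Cochlear basal membrane of untreated Sprague-Dawley rats of either sex was taken at postnatal days 1, 7 and 14, pooled over animals at each age, dissociated and captured in droplets as 1 library for each age after red cells were lysed and dead cells removed. The sample labels call the cells greater epithelial ridge cells, while the methods describe the whole dissociated membrane, and blood stains were washed off where possible. No sort for a cell type is described, so where the 66 cells lay in the tissue cannot be told from these data. With 1 library for each age there is no replicate, no test was made, and age and library cannot be told apart.

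Depth differed between libraries. The median barcode held 6618 UMIs at P1, 6707 at P7 and 1480 at P14, and the median of the 66 cells was 4283, 1984.5 and 2873 UMIs at these ages. P1 and P7 shared 60 barcode sequences, P1 and P14 shared 19, and P7 and P14 shared 25. No such sequence joined members of 2 libraries, and for 1 member of P1 or P7 the same sequence stood in the other library. Of the 66 cells, 10 also met a rule of the same form for another cell type (8 at P14), 9 of them the one for mesenchyme genes, and they were kept as members. Levels are the summed UMIs of a group, scaled by the group's total and written as CPM. Beside them stand exact 95% intervals (Poisson for a level, Clopper-Pearson for a share), which cover counting error only.

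Neutrophils arise in the bone marrow through ordered steps, each marked by the granule proteins made at that step. Promyelocytes fill azurophil granules with myeloperoxidase, the serine proteases elastase, proteinase 3 and cathepsin G, and alpha-defensins. Myelocytes then make specific granule proteins such as cathelicidin, neutrophilic granule protein, lipocalin 2 and collagenase. Gelatinase granules follow once division has stopped, and mature cells carry large amounts of the calcium-binding pair S100a8 and S100a9 and display chemoattractant and cytokine receptors.

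The 66 cells did not form 1 kind of cell. Read by the 5 genes of the rule, 9 cells were Mpo-led, with Mpo making up over 50% of their UMIs of these genes, and all 9 came from P14. A further 9 were Camp-bearing, with Camp and Ltf at 10% or more (2 at P1, 1 at P7 and 6 at P14), and the other 48 were S100-led (17, 3 and 28). No cell lay within 10 percentage points of the Mpo limit, while 5 lay within 5 points of the Camp limit. Ltf itself, lactoferrin, gave almost no UMIs in any library. The S100-led cells fell apart by Fcnb, which encodes ficolin B, a lectin of the complement system made by myeloid cells of the marrow. Fcnb UMIs were present in 33 of the 48 (6 at P1, 0 at P7 and 27 at P14) and absent in 15 (11, 3 and 1). This division was chosen after the data were seen and is used as a description.

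**Figure D1:**
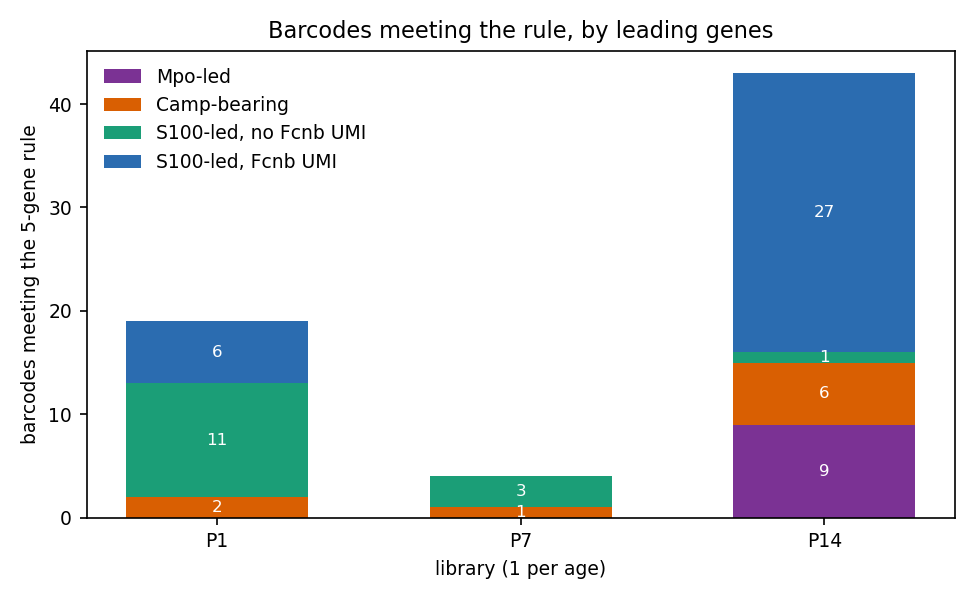
Bars give the number of barcodes that met the 5-gene rule in each library (vertical axis, barcodes; horizontal axis, age), divided by leading genes. P14 held all 9 Mpo-led cells and 27 of the 33 S100-led cells with Fcnb, while P1 held 11 of the 15 S100-led cells without it.

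The label of neutrophil lineage cells was held against markers other than the 5 genes. Azurophil, specific granule, alpha-defensin or stefin A genes outside the rule were present in the Mpo-led cells, in most Camp-bearing cells, and in the S100-led cells without Fcnb of P1 and P7. In the 33 S100-led cells with Fcnb, Elane had 1 UMI in all, Ctsg, Ngp and Lcn2 had 0, Mmp8 had 2, and 7 of the cells held a few defensin UMIs. Of the specific granule list, Cybb and Cyba of the phagocyte oxidase were present in most of them beside Fcnb itself. Without Fcnb, 3 genes of this list and 1 azurophil gene had enough UMIs to be compared between these cells at P14 and P1. The low counts above thus do not hold for every gene of these lists. At the same time Lyz2, S100a4, S100a6 and Fn1 were high, so these cells are called by their leading genes. Of the monocyte list in these cells at P14, Fn1 had 393 UMIs, Csf1r 13 in 10 of the 27 cells, Ly86 5, F13a1 1 and Ms4a7 0. That list has 6 genes, of which 5 were in the matrices, and no value is given for Ccr2. Of the 10 macrophage genes 6 had a UMI there, with 72 UMIs in all and 0 to 7 in a cell, and C1qa, C1qb and C1qc were at 0. At P1 3 of the 10 had a UMI in such cells, with 38 in all and 1 to 9 in a cell. No other cell type name was given to them. The single P14 cell that was S100-led without Fcnb carried 10 S100a8 UMIs, no UMI of 10 pan-leukocyte genes and 35 UMIs of 6 mesenchyme genes, which goes against the label.

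**Figure D2:**
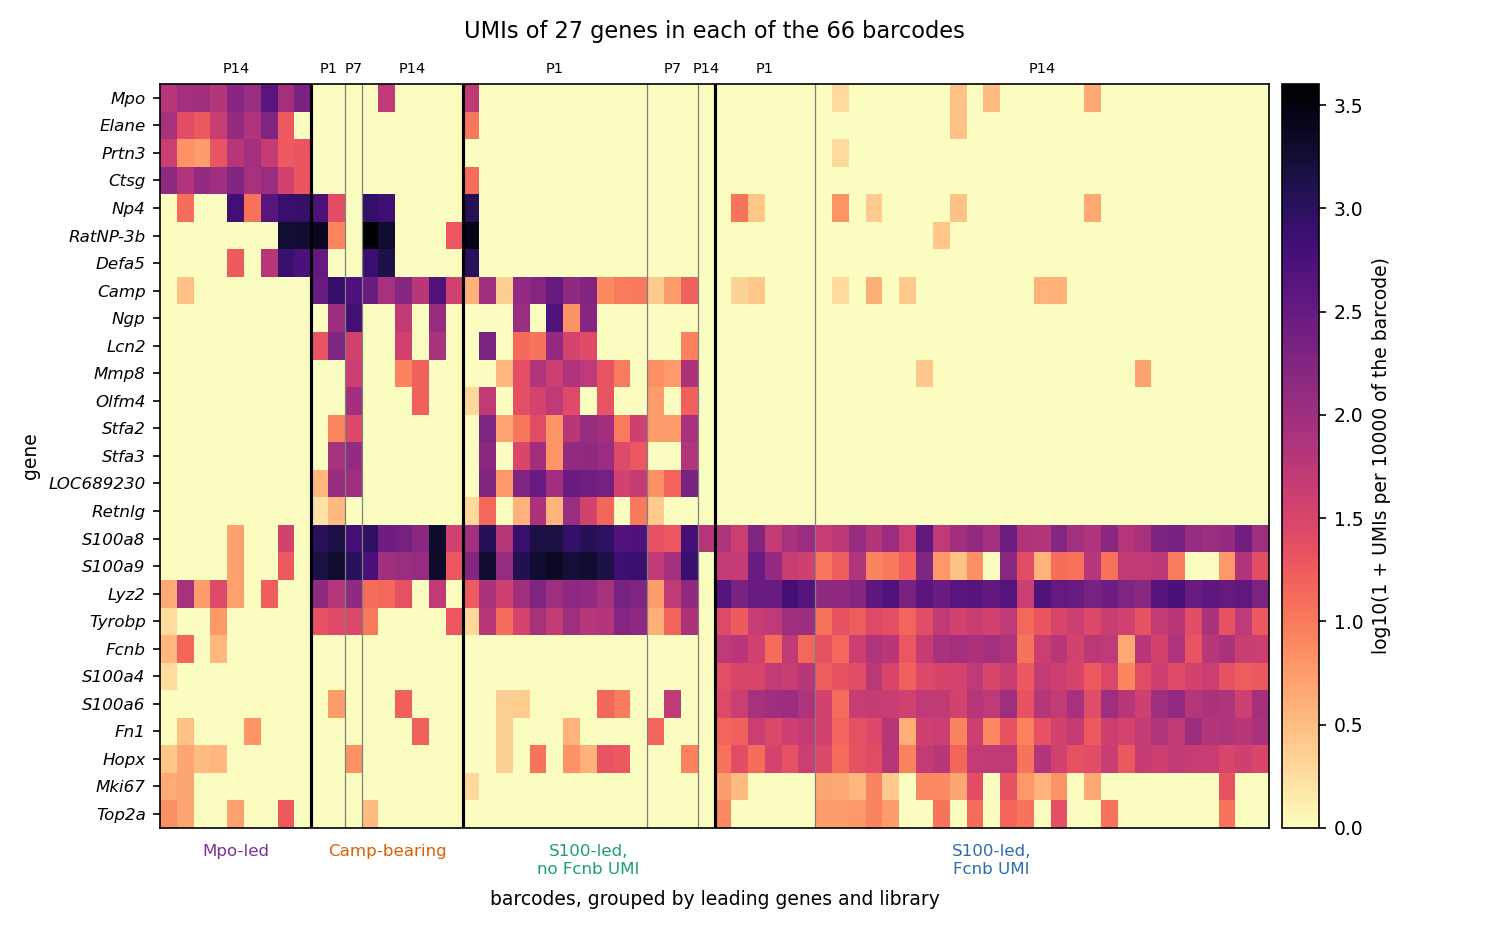
Each column is 1 of the 66 barcodes and each row 1 of 27 genes, and the colour gives log10 of 1 plus the UMIs for each 10000 UMIs of that barcode. Protease, cathelicidin with stefin, and Fcnb with S100a4 transcripts lie mostly in different columns. Defensin crosses the first 2, since of the 8 columns with at least 1% defensin 5 held Ctsg and 3 held 10 or more Camp UMIs. S100a8 is shared by all columns other than most Mpo-led ones.

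Start regions of 6 genes used to describe these cells are shown, so that the genes can be placed and compared. They are the 300 bases from 250 before to 50 after the gene start in RefSeq on the rat assembly GRCr8, written 5′ to 3′ on the gene's strand. The count files were made on rn6, so these coordinates do not apply to them. Of 14 genes looked up, 11 were in the table, and S100a8, Elane and Defa5 were not. Mpo (chr10:73092152-73092451, plus strand) and Ctsg (chr15:33907547-33907846, minus strand) were the leading protease-granule genes of the Mpo-led cells. Np4 (chr16:77199593-77199892, minus strand) and RatNP-3b (chr16:77248928-77249227, minus strand) are alpha-defensin genes of the same chromosome. S100a9 (chr2:178490573-178490872, minus strand) was a gene of the rule, and Fcnb (chr3:31800139-31800438, minus strand) divided the S100-led cells. Capitals mark matches, on either strand, to the C/EBP-type letters TTGCNNAA, the ETS-type letters GAGGAA or the TATA letters TATAAA.
Mpo: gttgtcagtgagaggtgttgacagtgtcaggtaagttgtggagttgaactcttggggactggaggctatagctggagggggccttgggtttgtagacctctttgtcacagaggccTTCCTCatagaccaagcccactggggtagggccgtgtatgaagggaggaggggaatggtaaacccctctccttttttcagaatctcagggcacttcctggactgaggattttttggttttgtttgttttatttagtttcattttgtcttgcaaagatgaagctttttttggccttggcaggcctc
Ctsg: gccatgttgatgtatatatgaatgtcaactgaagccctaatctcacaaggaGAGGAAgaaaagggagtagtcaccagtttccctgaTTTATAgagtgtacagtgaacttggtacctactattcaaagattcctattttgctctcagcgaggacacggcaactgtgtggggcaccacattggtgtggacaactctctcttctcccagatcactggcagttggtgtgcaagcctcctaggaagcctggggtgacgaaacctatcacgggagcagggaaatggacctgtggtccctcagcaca
Np4: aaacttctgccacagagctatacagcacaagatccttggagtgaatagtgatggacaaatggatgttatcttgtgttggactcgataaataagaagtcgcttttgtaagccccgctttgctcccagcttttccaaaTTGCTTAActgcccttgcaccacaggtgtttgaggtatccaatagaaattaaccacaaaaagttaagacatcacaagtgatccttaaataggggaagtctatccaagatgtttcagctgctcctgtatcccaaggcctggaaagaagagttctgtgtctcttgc
RatNP-3b: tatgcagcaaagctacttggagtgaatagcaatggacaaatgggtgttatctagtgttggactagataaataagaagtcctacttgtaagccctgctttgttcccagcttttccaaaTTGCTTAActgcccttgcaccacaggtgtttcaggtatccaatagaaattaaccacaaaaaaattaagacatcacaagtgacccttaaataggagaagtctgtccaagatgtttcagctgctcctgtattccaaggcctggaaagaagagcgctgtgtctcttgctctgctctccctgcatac
S100a9: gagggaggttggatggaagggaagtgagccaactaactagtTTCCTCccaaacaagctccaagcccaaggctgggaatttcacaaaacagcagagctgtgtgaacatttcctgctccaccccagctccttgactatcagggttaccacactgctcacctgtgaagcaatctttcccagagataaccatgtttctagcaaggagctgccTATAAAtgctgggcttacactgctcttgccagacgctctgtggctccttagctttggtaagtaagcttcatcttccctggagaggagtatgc
Fcnb: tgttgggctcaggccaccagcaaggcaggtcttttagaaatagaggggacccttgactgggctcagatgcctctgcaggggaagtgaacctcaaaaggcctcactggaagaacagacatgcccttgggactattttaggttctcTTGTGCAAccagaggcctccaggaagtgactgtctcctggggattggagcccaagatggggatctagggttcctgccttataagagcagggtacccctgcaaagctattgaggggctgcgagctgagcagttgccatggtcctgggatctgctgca
Np4, RatNP-3b and Fcnb each held 1 match to the C/EBP-type letters, which 10.6% of 33469 promoters of this length hold. Mpo, Ctsg and S100a9 each held 1 match to the ETS-type letters, found in 27.6% of them, and Ctsg and S100a9 1 to TATAAA, found in 14.2%. Shifted by 19 bases and compared without gaps, the Np4 and RatNP-3b windows were identical at 180 of 281 positions (64.1%). The stretch between shared runs of letters differs in length, so later positions fall out of step and this percent understates their likeness. A comparison with gaps was not made. A match is a description of letters and not a binding site.

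The 9 Mpo-led cells of P14 expressed the azurophil protease genes together. Myeloperoxidase (Mpo) chose them, with 5 UMIs in the lowest cell, 27 in the median cell and 74 in the highest. Ctsg, cathepsin G, which the rule did not use, had from 1 to 171 UMIs (median 36) and was present in all 9 cells. Elane, neutrophil elastase, had from 0 to 101 UMIs (median 13) and was present in 8. Prtn3, proteinase 3, had from 1 to 48 UMIs (median 3) and was present in 9. As summed levels these were 11767 CPM (10608 to 13019) for Ctsg, 6134 (5305 to 7055) for Elane and 3067 (2490 to 3738) for Prtn3. In the 27 S100-led cells with Fcnb of the same library, Ctsg had 0 UMIs, Elane 1 and Prtn3 1. Between these groups of P14 the proteases thus lay almost wholly in the Mpo-led cells, with no overlap for Ctsg.

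Other granule genes stood with them. Srgn, serglycin, the proteoglycan core of secretory granules, had 225 UMIs and was present in 9 of 9 cells, and Nkg7, a granule membrane protein best known from killer cells, had 81 UMIs, also in 9 of 9. The mast cell protease-like genes Mcpt8l3 and Mcpt1l4 had 30 UMIs in 4 cells and 17 in 3 cells. Ms4a3, a marker of granulocyte and monocyte progenitors, had 9 UMIs in 4 cells. Of 10 S100 family genes, S100a8 had 3 UMIs over all 9 cells, S100a9 2, S100a4 1 and S100a6 0. Ngp, Lcn2, Mmp8 and Retnlg were at 0.

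Against the 28 S100-led cells of P14, 126 of 1158 genes tested (10.9%) were higher in the Mpo-led cells by at least 1 on the log2 scale with 10 CPM added, and 305 (26.3%) were lower. The lists are counted here and in later comparisons without the 5 genes of the rule, which chose the cells, and without Fcnb where it divided them. Of the azurophil list, 3 of 4 tested genes were higher (median log2 ratio 7.92, against -0.21 over all genes tested), and 0 were lower. Of the S100 family 5 of 5 were lower (median -4.27). Ribosomal protein genes, of which 17 of 72 were higher and 0 lower, had a median of 0.75. Beside proteases and defensins, the 15 leading genes held Hspd1, a mitochondrial chaperone, at 657 against 63.7 CPM, Mif, a cytokine, at 1440 against 247, Ncl, nucleolin, at 939 against 231, and Calr, calreticulin, at 908 against 239. The genes furthest below were S100a6 (0 against 4840 CPM), S100a4 (31.3 against 2834), Lst1 (0 against 581), Mnda (0 against 470), Fn1 (62.6 against 3128), Tf (0 against 382), Lsp1 (0 against 342) and Cd302 (0 against 326). A row of Hba-a2, a haemoglobin symbol given to more than 1 gene, was among them at 62.6 against 2786 CPM, and 1 S100-led cell held 510 of the 547 erythroid-list UMIs of all P14 members, whose part in that difference was not tested.

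Alpha-defensins, the small antimicrobial peptides of azurophil granules, took up large parts of a few cells. The matrices hold 10 such genes, which are close copies of each other, so the division of UMIs between Np4, RatNP-3b and Defa5 is uncertain and their sum is given. They made up at least 1% of the UMIs in 8 of the 66 cells and at most 0.301% in each of the others. At P1 the cells were 1 with 5364 defensin UMIs of 10715 (50.1%) and 1 with 5239 of 16441 (31.9%). At P14 they were 2461 of 4322 (56.9%), 640 of 1590 (40.3%), 195 of 576 (33.9%), 172 of 525 (32.8%), 166 of 2448 (6.78%) and 31 of 652 (4.75%). The share was therefore high in single cells of both ages and low or absent in the others.

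These 8 cells crossed the groups drawn from the 5 genes. Of them 4 were Mpo-led, 3 Camp-bearing and 1, at P1, was S100-led without Fcnb. That P1 cell also held 53 Mpo UMIs, 10 of Elane, 12 of Ctsg and 339 of Srgn, together with 96 of S100a8 and 177 of S100a9, and it carried all Mpo UMIs of the P1 library. In P14, 1 Camp-bearing cell with 640 defensin UMIs held 8 Mpo and 13 Camp UMIs. None of the 8 cells had an Ngp, Mmp8, Fcnb or stefin A UMI, 1 had Lcn2, and 5 had Ctsg. The composition within the family differed too, since in the Mpo-led cells with 166 and 31 defensin UMIs Np4 gave 162 and 27 of them and RatNP-3b 0, while in the other 6 cells RatNP-3b gave the most. The Mpo-led cells with RatNP-3b had at most 500 genes each, and among Mpo-led cells with more genes its level went from 6322 to 0 CPM.

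**Figure D3:**
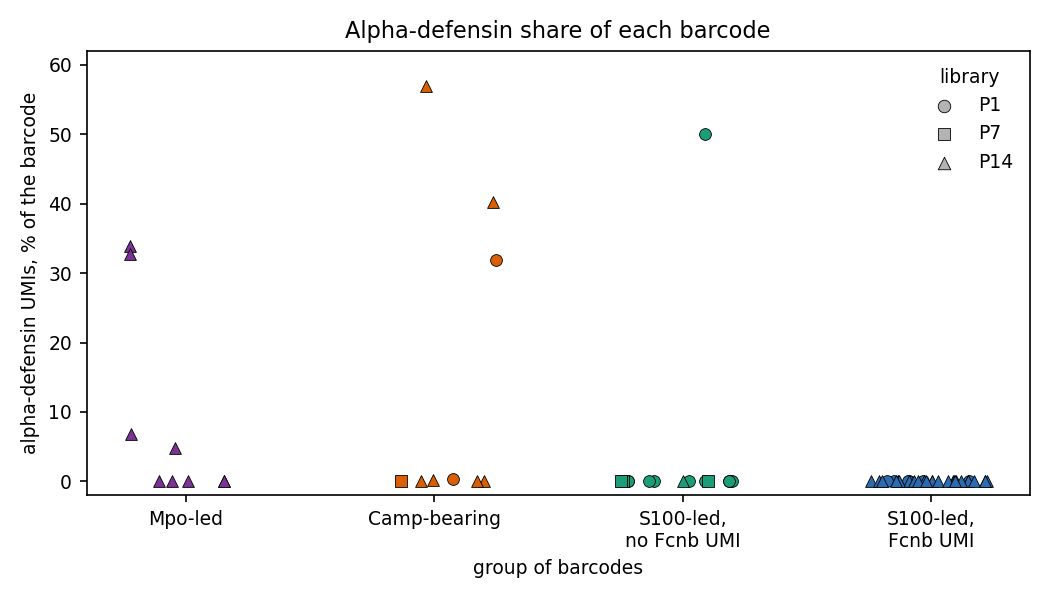
Each point is 1 barcode, placed by group (horizontal axis) and by the percent of its UMIs on 10 alpha-defensin genes (vertical axis), with the marker giving the library. The 8 points above 1% lie between 4.75% and 56.9%, and no S100-led barcode with Fcnb lies above 0.101%.

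Cathelicidin (Camp), the antimicrobial peptide precursor of specific granules, was at 10 or more UMIs in 13 cells, of which 6 counted as S100-led since S100a8 and S100a9 were so high in them. The 2 Camp-bearing cells of P1 held 504 and 363 Camp UMIs, the P7 cell 91, and the 6 of P14 held 122, 30, 22, 13, 4 and 2. The last of these, with 5 UMIs of the 5 genes in all, stood at the limit of the rule. Ngp, neutrophilic granule protein, was present in 8 cells (5 at P1, 1 at P7 and 2 at P14), each with 10 or more Camp UMIs. It had 182, 83, 57, 44 and 2 UMIs at P1, 117 at P7, and 7 and 7 at P14. All 8 also held Lcn2, lipocalin 2, which binds bacterial siderophores. Of the 13 cells 8 thus held Ngp and 11 Lcn2, and none held an Fcnb, Elane or Ctsg UMI.

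The 11 S100-led cells without Fcnb of P1 carried specific granule genes, though not every cell did. Lcn2 had 258 UMIs in 6 of the 11, with 177 in the highest cell, Mmp8, neutrophil collagenase, 110 in 8, Olfm4, olfactomedin 4 of specific granules, 108 in 7, and Pglyrp1, a peptidoglycan-binding protein, 128 in 10. Retnlg, a resistin-like gene of mature rodent neutrophils, had 101 UMIs in 9 cells. Cd177, a surface protein of neutrophils, had 23 UMIs in 6, and Mmp9, gelatinase, 11 in 6. Il1r2, the decoy receptor for interleukin 1, had 28 UMIs in 8 of them. All but the P1 cell rich in defensin held stefin A family transcripts, which encode intracellular inhibitors of cysteine proteases.

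Stefin A genes and Fcnb were not found in the same cell, though only the P1 members held both. Stfa2, Stfa2l1 and Stfa3 together had from 0 to 471 UMIs in the 11 cells (median 30), and their levels were 5115 CPM (4528 to 5756) for Stfa2, 6584 (5916 to 7307) for Stfa2l1 and 5691 (5071 to 6366) for Stfa3. LOC689230 stood with them at 13112 CPM (12162 to 14117) and in 10 of the 11 cells. Stefin A UMIs were found in 15 of the 66 cells (11 at P1 and all 4 at P7), and in none of the 43 cells of P14. Of the 15, 12 held Mmp8. The stefin genes are close copies, and reads may be divided among them with error.

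In the P1 library, 81 of 537 genes tested (15.1%) were higher by at least 1 on the log2 scale in the S100-led cells without Fcnb than in the 6 with it, and 226 (42.1%) were lower. The median over all genes was -0.78. S100a8 stood at 71530 and S100a9 at 114678 CPM in the cells without Fcnb, and their part in that median was not tested. Ribosomal protein genes, of which 52 of 64 were lower and 0 higher, had a median of -1.41. Of the specific granule list 7 of 9 tested genes were higher and 1 lower, with a median of 7.66.

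The 33 S100-led cells with Fcnb formed the largest group, and 27 were from P14. Fcnb had from 1 to 48 UMIs (median 15) in the 27 P14 cells and from 3 to 72 (median 21) in the 6 P1 cells. Lyz2, lysozyme, had from 16 to 324 UMIs (median 127) at P14 and from 108 to 603 (median 185.5) at P1. S100a4 and S100a6, calcium-binding proteins of motile cells, were present in all 33, with 2 to 38 (median 10) and 7 to 46 (median 23) UMIs at P14. Fn1, fibronectin, and Hopx, a homeodomain protein without DNA binding, were likewise present in 33 of 33. In the 15 S100-led cells without Fcnb, S100a4 was at 0 in the 11 cells of P1, and Fn1 had 2 UMIs there.

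The counting intervals of these cells at P1 and P14 overlapped for Fcnb, S100a4 and Fn1, and did not for Hopx, Lyz2 and Tyrobp. They leave out the spread between cells and between libraries, so overlap or its lack is a description and no test of age. Fcnb stood at 4461 CPM (3823 to 5176) at P1 and 4611 (4241 to 5005) at P14, S100a4 at 3256 (2715 to 3874) and 2870 (2580 to 3184), and Fn1 at 2410 (1948 to 2949) and 3168 (2863 to 3498). Hopx was at 1923 (1513 to 2411) and 3313 (3001 to 3650), and Lyz2 at 37896 (35989 to 39879) and 28619 (27685 to 29576). Tyrobp, the adaptor DAP12 of myeloid receptors, was present in all 33 cells, at 4282 (3657 to 4983) and 2814 (2526 to 3125). Cybb, the catalytic subunit of the phagocyte NADPH oxidase, was present in 5 of 6 and 26 of 27. Csf3r, the receptor for granulocyte colony-stimulating factor, had 2 UMIs at P1 and 7 at P14. Irf8, a transcription factor of monocyte and dendritic cell progenitors, was present in 14 of 27 cells at P14 (22 UMIs) and had 0 UMIs in the 6 cells of P1, where 3 counts would be 76.9 CPM.

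The balance of S100a8 and S100a9, which dimerise as calprotectin, differed between libraries. The rule used their sum and not their ratio. At P1 the members held 6497 S100a8 and 9754 S100a9 UMIs, so that S100a9 made up 60.0% (59.3 to 60.8). At P7 it made up 61.9% (57.7 to 65.9), and at P14 28.9% (27.2 to 30.6). S100a9 exceeded S100a8 in 16 of 19 cells at P1, 4 of 4 at P7 and 1 of 43 at P14. The share was lowest at P14 within groups as well. It was 58.0% at P1, 63.4% at P7 (1 cell) and 39.1% at P14 in the Camp-bearing cells, and 61.1%, 60.2% and 22.7% in the S100-led cells. In those with Fcnb it was 53.3% at P1 and 22.8% at P14. P14 was lowest also in the barcodes that did not meet the rule, where 68 S100a8 and 114 S100a9 UMIs at P1 made 62.6%, and the share was 64.5% at P7 and 13.7% at P14 (10.4 to 17.6). P1 and P7 did not keep 1 order across these groups.

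**Figure D4:**
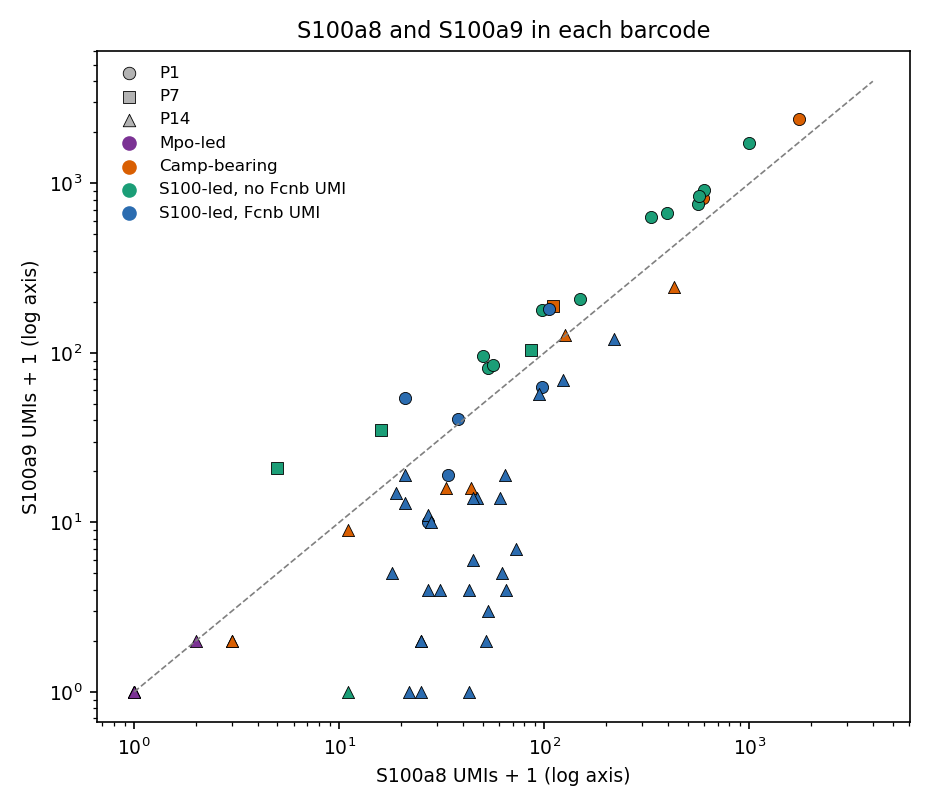
Each point is 1 barcode by its S100a8 and S100a9 UMIs plus 1 (both axes logarithmic), with the marker for the library, the colour for the group and the dashed line for equal numbers. P1 and P7 barcodes lie above the line other than 3 of P1, up to 2401 S100a9 UMIs, and no P14 barcode other than 1 lies above it.

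The P7 library gave 4 cells, too few for a level. The Camp-bearing one held 109 S100a8, 189 S100a9, 91 Camp, 117 Ngp and 17 Olfm4 UMIs of 1786. The others held 85 S100a8 and 103 S100a9 UMIs of 1332, 15 and 34 of 6825, and 4 and 20 of 2183. Stefin A and Mmp8 UMIs were present in all 4, and Fcnb, Mpo, Elane and defensin UMIs in none. The cell with 6825 UMIs also held 96 UMIs of mesenchyme genes and met the mesenchyme rule.

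Transcripts of dividing cells were found mainly in the Mpo-led cells and in the S100-led cells with Fcnb. With each cell thinned at random to 500 UMIs, 10 of 43 P14 members (23.3%, 11.8 to 38.6) held 2 or more UMIs of 10 proliferation genes, against 3.97% (3.50 to 4.49) of 6172 other P14 barcodes and 0 of 99 macrophage-rule barcodes. Without thinning the shares were 53.5% and 7.84%. At P1, 0 of 19 members passed after thinning (exact upper bound 17.6%), against 4.29% of other P1 barcodes, and 4 passed without it. Of the P14 cells, 7 of the 27 S100-led with Fcnb and 3 of the 9 Mpo-led passed after thinning, and 0 of the 6 Camp-bearing did. Unthinned, 16 of the 27 with Fcnb at P14 (59.3%) and 3 of the 6 at P1 (50%) passed, and 13 of the 27 held 10 or more of these UMIs, up to 42. The makeup of the members differed between these ages. None of the 11 S100-led cells without Fcnb of P1 held more than 1.

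By gene, in the 27 S100-led cells with Fcnb of P14, Ube2c, a ubiquitin-conjugating enzyme of mitosis, had 85 UMIs in 15 cells, Mki67, the Ki-67 antigen, 58 in 15, Top2a, topoisomerase II alpha, 58 in 12, and Nusap1, a spindle protein, 46 in 14. In the 9 Mpo-led cells Top2a had 11 UMIs in 4.

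**Figure D5:**
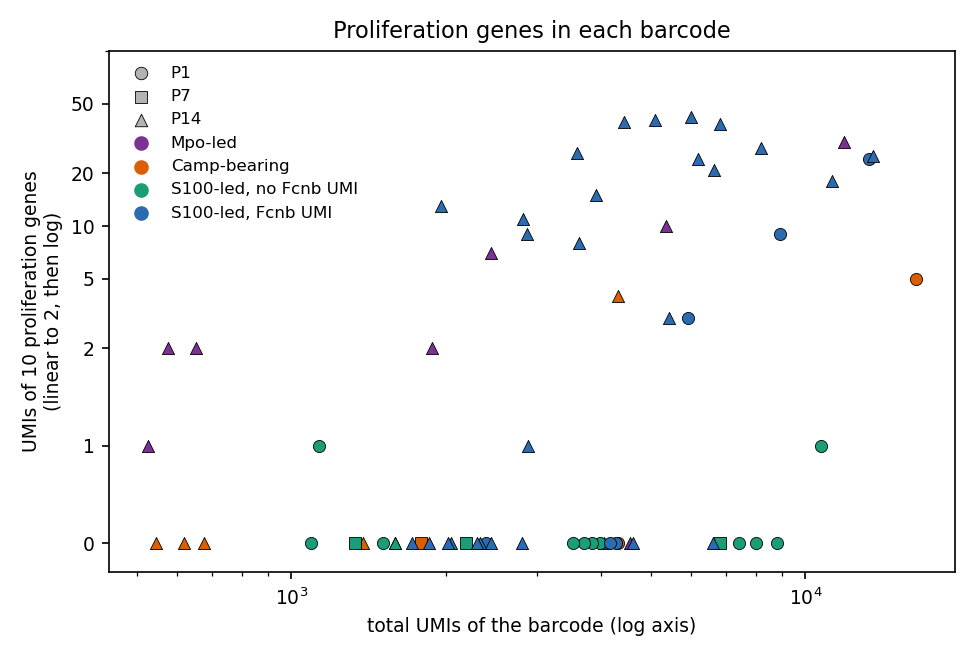
Each point is 1 barcode by its total UMIs (horizontal log axis) and its UMIs of 10 proliferation genes (vertical axis, linear to 2 and logarithmic above). S100-led cells with Fcnb and Mpo-led cells of P14 reach 42 and 30, while S100-led cells without Fcnb stay at 0 or 1.

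Set beside all other barcodes of their library, the P14 members were higher by at least 1 on the log2 scale (10 CPM added) for 613 of 12697 genes tested (4.83%) and lower for 2220 (17.5%), with a median of -0.33. The cells were chosen by the rule genes, and any gene that goes with the rule genes must differ, so the counts are a description. All 6 tested genes of the specific granule list were higher (median 2.73), 4 of 5 of the azurophil list with 1 lower, 5 of 5 of the NADPH oxidase list (median 2.71), 7 of 10 neutrophil receptor genes with 0 lower (median 1.83), and 10 of 10 proliferation genes (median 1.61). Of 9 cytokine and immediate response genes 0 were higher and 1 lower (median -0.54). Of the gelatinase granule list 0 of 5 were higher and 1 was lower. All 7 endothelial genes were lower, as were 4 of 6 mesenchyme genes, and of the B lineage list 6 of 8 were lower. Of the macrophage list 2 of 10 were higher and 3 lower.

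Beside the genes of the rule and the defensins, the leading genes of the P14 members were Fcnb at 3497 against 75.9 CPM, Lyz2 at 21750 against 649, S100a4 at 2141 against 85.7, Rnase2, an antiviral ribonuclease, at 372 against 4.11, Retn, resistin, at 276 against 1.64, Lst1, a leukocyte-specific transcript, at 450 against 12.9, and Mcemp1, a mast cell-expressed membrane protein, at 216 against 1.97. LOC24906, MGC105649 and LOC100911104 were at 1464, 984 and 684 against 36.7, 27.5 and 11.4 CPM. Among the 15 genes furthest below, Pmp22, a peripheral myelin protein, was at 120 against 2448 CPM, and Mbp, myelin basic protein, at 156 against 1243. Cav1, caveolin of caveolae, was at 48.0 against 411, and Spp1, osteopontin, was at 216 against 1185.

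The P1 members, 19 cells and so 1 under the number planned for a level, were higher for 699 of 15417 genes tested (4.53%) and lower for 3425 (22.2%), with a median of -0.32. All 10 tested genes of the specific granule list were higher (median 6.60), 4 of 7 of the gelatinase granule list, 9 of 11 of the neutrophil receptors (median 3.33) and 5 of 5 of the NADPH oxidase list (median 4.29), with 0 lower in each. The azurophil list had 1 of 3 tested genes higher and 0 lower, with a median of -0.16. Of 13 cytokine and immediate response genes 5 were higher and 2 lower, and of 10 proliferation genes 0 were higher and 1 lower (median -0.35). Ribosomal protein genes were lower in 40 of 98 cases and higher in 2 (median -0.92). Serpinb1a, an inhibitor of neutrophil serine proteases, stood at 4915 CPM in the P1 members against 15.1 in the other barcodes, and Tf, transferrin, at 6562 against 24.7.

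P14 also held other blood cells, against which the members were compared within the library. Against 99 barcodes with C1q transcripts, 291 of 2354 genes tested (12.4%) were higher in the members and 303 (12.9%) lower. Of the macrophage list 8 of 9 genes were lower (median -5.31), with C1qa and C1qb at 0 in the members and Mrc1, the mannose receptor, present in 5 of 43 members and 88 of 99 of those barcodes. C1qa, C1qb and C1qc chose those barcodes and were kept in that list, so their part in this count was fixed by the choice. Mrc1 was not among the choosing genes. Of 4 neutrophil receptor genes tested 1 was higher and 2 were lower (median -1.13). Of the S100 family 5 of 6 were higher and 0 lower (median 4.15), and of the proliferation list 9 of 9 were higher (median 3.09). The 5 NADPH oxidase genes did not pass in either direction (median 0.17), nor did 74 ribosomal protein genes. Against 63 barcodes with B lineage transcripts, 351 of 1898 genes (18.5%) were higher and 287 (15.1%) lower. Igll1, Vpreb2 and Rag1 of early B cells were at 0 in the members and at 4099, 1292 and 780 CPM in those barcodes. Igll1 and Rag1 were among the genes that chose those barcodes, and Vpreb2 was not. Of 10 proliferation genes 0 were higher and 1 was lower (median -0.63).

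Between libraries, the S100-led cells of P14 were compared with those of P1. Of 1486 genes tested, 378 (25.4%) were higher at P14 and 135 (9.08%) lower. The groups differ in makeup, since 27 of 28 held Fcnb at P14 and 6 of 17 at P1. All 15 leading genes at P14, such as Ptgds, Coch and Dcn, were also higher at P14 by at least 1 on the log2 scale in the barcodes that are not members. Among the S100-led cells with Fcnb alone, 243 of 1189 genes (20.4%) were higher at P14 and 126 (10.6%) lower. Of the 15 leading genes there, 12 were also higher at P14 in the other barcodes, and of the 15 furthest below 11 were also lower there, among them Actb at 1064 against 5384 CPM in the members. Coch was at 3531 CPM in the P14 members with Fcnb and 5795 in the other P14 barcodes, and Ptgds at 3329 and 12577. The share of library-wide RNA in these differences was not tested. Of 7 proliferation genes tested, 5 were higher at P14 and 0 lower (median 1.44, against 0.09 over all genes).

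S100a8 and Fcnb were rare in mesenchyme-rule and endothelial-rule barcodes that were not members. Members that also met these rules were left out of those groups. At P14 they were 7 for mesenchyme and 1 for endothelium, and at P1 1 for mesenchyme. The low S100a8 shares outside the members follow in part from that choice. After thinning to 500 UMIs, S100a8 was found in 81.4% of the 43 P14 members, and in 0.551% (0.294 to 0.940) of 2360 barcodes that met the mesenchyme rule and 0.886% (0.383 to 1.74) of 903 that met the endothelial rule. Without thinning these were 83.7%, 1.74% and 1.77%, at median depths of 2873, 1497.5 and 964 UMIs. Fcnb after thinning was in 58.1% of the P14 members, 0.508% of the mesenchyme-rule and 0.111% of the endothelial-rule barcodes (69.8%, 1.14% and 0.554% unthinned). At P1, S100a8 was in 94.7% of the 19 members and 0.0286% of 6991 mesenchyme-rule barcodes (100% and 0.372% unthinned, at 4283 and 6857 UMIs). Of all S100a8 UMIs under the mitochondrial limit, 99.0% lay in the members at P1, 77.7% at P7 and 86.2% at P14, and of all Mpo UMIs at P14 33.7% did. These genes chose the members, so the shares are a description.

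At the edge of the rule, the lowest P14 member had 53.9 UMIs of the 5 genes for each 10000 (73 of 13544) and the highest barcode outside had 47.2 (22 of 4661). At P1 the lowest member had 87.4 and no barcode outside held 5 UMIs of these genes. At P7 the lowest member had 73.3 and the highest outside 17.0. Only P14 thus had barcodes close to the limit on both sides.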

How the data were processed

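Single-cell 3′ RNA libraries of rat cochlear basal membrane at P1, P7 and P14 were analysed, 1 for each age. The authors converted the reads with bcl2fastq, aligned them to rn6 with Cell Ranger (the matrix headers give software version 3.1.0) and used Seurat 3.1.1. The deposited matrices hold UMI counts for 32623 genes, not normalized, and the gene annotation and the first calling of cells from droplets are not given in the sources used here. The study's methods state limits of over 500 and under 5000 genes and under 25% mitochondrial UMIs for 34927 cells. The deposited matrices hold 34927 barcodes, of which 30641 lie inside these limits. They hold 114285848, 101264868 and 12616390 UMIs.

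Barcodes were chosen as the report states. The members and gene lists were chosen with earlier results of these data known. No doublet caller was run and none were removed, and members that met another type's rule (the same limits on C1q, B lineage, haemoglobin, mesenchyme or endothelial genes) were counted. UMIs were summed by group and library, with exact intervals at the 95% level. A gene entered a comparison with 20 UMIs over both groups, and was called at a log2 ratio of at least 1 with 10 CPM added. Genes named are those of the rule, of the 22 lists, the alpha-defensins and, in the comparisons of the P14 members with other P14 barcodes and of Mpo-led with S100-led cells, the 15 with the largest ratios in each direction among genes with a UMI in 25% of the cells and 20 UMIs in the higher group. Other genes were named after they were seen, as were the division by Fcnb, the comparisons that use it, the leaving out of the rule genes and Fcnb from lists, and the values of P1, whose 19 cells are under the 20 planned. Steps were tested on simulated data and run in Python 3.11.15 with numpy 2.4.6, scipy 1.17.1, pandas 2.3.3 and matplotlib 3.10.9. 1 gene that the rule names is not reported here.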

Additional observations from a re-analysis of the deposited data

How the results depend on the processing

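The number of members moved most with the limit on the 5 genes. At 100 for each 10000 UMIs P14 kept 28 of its 43 members, and at 25 it held 57, while P1 ranged from 18 to 19 and P7 from 3 to 5 over all limits tried. With Camp and Ltf at 3% or more in place of 10%, a limit chosen after the data were seen, P1 had 8 Camp-bearing cells and P7 2, and P14 had 8 in place of 6. The Mpo-led share of P14 members lay between 15.8% and 29.8%. Proliferating P14 members were 46.5% with 1 or more UMIs and 53.5% without thinning, in place of 23.3%. With 1 CPM added in place of 10, 1152 genes were higher and 5524 lower in P14 members against other barcodes, where genes of few UMIs pass more easily. As a mean over cells in place of summed UMIs, 30 of 75 levels stayed within their counting interval and 27 moved by over 1.5 times, RatNP-3b in the Mpo-led cells most, from 6322 to 40803 CPM, since shallow cells held most of it. Without the members that met another rule, 41 of 75 stayed. No paired analysis was possible because each age has 1 library and the labels carry no replicate numbers, and for the same reason no replicate could be left out. Depth limits genes of few UMIs: in the 6 P1 cells with Fcnb a gene at 0 could reach 76.9 CPM.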

Other observations

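At P14, 36 barcodes held 3 or more Mpo UMIs and did not meet the rule, chosen after the data were seen. They held 535 Mpo UMIs, against 309 in the 43 members, and were deep, with a median of 8848 UMIs (1388 to 18688). Mpo made up at most 41.6 of each 10000 UMIs. With enough UMIs of the rule genes, a barcode failed the rule only where their share was low. The depth and Mpo share of these 36 barcodes thus follow in part from how they were chosen. Their levels were 1542 CPM (1414 to 1678) for Mpo, 1401 (1279 to 1531) for Ctsg, 576 (499 to 662) for Elane and 323 (266 to 388) for Prtn3. S100a8 was at 104 CPM (72.7 to 144) and Camp had 0 UMIs. Myb, a transcription factor of blood progenitors, was present in 24 of the 36, Irf8 in 24, Kit, the stem cell factor receptor, in 12, Flt3 in 5, and Cd34 and Gata2 in 1 each. Srgn was present in 35, Lyz2 in 21 and Fcnb in 15.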
